A study of Mus musculus with 3 samples.

Results

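The piRNA biogenesis genes described here are Piwil2, Gtsf1, Mov10l1, Pld6, Asz1, Mael, Tdrd1, Tdrd5, Tdrd9 and Mybl1. They are 10 of the 27998 genes of the deposited count matrix, chosen by symbol, and all 10 were found. Piwi-interacting RNAs (piRNAs) are short RNAs that guide PIWI proteins to transposon transcripts in germ cells. Long precursors are unwound and cut at the surface of mitochondria, loaded onto PIWI proteins and matured in cytoplasmic granules (nuage) that Tudor domain proteins help to build. Loss of this pathway in male mice releases transposons and arrests spermatogenesis, and in the fetal and neonatal testis it directs DNA methylation of transposons in prospermatogonia.

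The study profiled testes of male mice at postnatal day 3 (3.5 days post partum at dissection, per the protocol) as single cells with 10x Genomics 3-prime version 2 chemistry. Cdk2-Y15S testes were homozygous for the YS allele of Cdk2, in which tyrosine 15 of the kinase, a site whose phosphorylation restrains it, is a serine. Cdk2-HET testes carried 1 YS and 1 wild type allele, and Cdk2-WT testes carried 2 wild type alleles. All were bred from Cdk2 +/YS animals, were untreated and had a background of B6(Cg)-Tyrc-2J/J mixed with FVB/NJ. There was 1 library per genotype, so no difference between genotypes has a replicate check or a test, and the sources used here do not say how many animals went into a library.

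The Cdk2-Y15S library held 4403 cells and 28651691 unique molecular identifiers (UMIs, each counting 1 captured transcript), Cdk2-HET 4958 cells and 32025077 UMIs, and Cdk2-WT 5061 cells and 30624473 UMIs. The authors' germ cells were 141 cells, 72 of Cdk2-Y15S, 0 of Cdk2-HET and 69 of Cdk2-WT, in clusters named A to E. Each of the 141 cells had a UMI of the germ cell genes Ddx4 and Dazl and also of the member Mael, and none had fewer than 10351 UMIs. Among cells outside the 141 with all 3 of these transcripts and at least that depth there were 1 of Cdk2-Y15S, 40 of Cdk2-HET and 0 of Cdk2-WT. The sources used here do not say how the cells were chosen, so the presence of Mael in every one of them is not read as a result. Cluster and library were largely one: cluster A was Cdk2-WT only (36 cells), clusters D and E were Cdk2-Y15S only (37 and 21 cells), cluster B had 6 Cdk2-Y15S and 28 Cdk2-WT cells, and cluster C had 8 and 5. The libraries share 87 cell barcodes, none of them among the 141 germ cells.

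The promoters of members that differ between the libraries are shown first, since members from the same pathway did not all lie on the same side. Of the 10 members, 8 had an entry in RefSeq's table of windows that run from 250 bases before to 50 bases after the start site (GRCm38.p6, the same assembly as the mm10 build of the files). Mael, Tdrd1 and Asz1 were lower and Mov10l1 higher in Cdk2-Y15S germ cells. Their windows are printed 5′ to 3′ on the gene's strand, and capitals mark CACGTG, an E-box, and TCCCGC or its reverse complement, the core of many E2F sites.
Mael: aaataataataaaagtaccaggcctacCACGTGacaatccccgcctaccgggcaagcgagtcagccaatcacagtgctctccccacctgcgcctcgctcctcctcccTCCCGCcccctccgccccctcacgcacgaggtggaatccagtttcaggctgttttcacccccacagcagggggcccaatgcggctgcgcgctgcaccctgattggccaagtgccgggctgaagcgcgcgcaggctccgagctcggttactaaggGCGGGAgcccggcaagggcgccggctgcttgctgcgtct
Tdrd1: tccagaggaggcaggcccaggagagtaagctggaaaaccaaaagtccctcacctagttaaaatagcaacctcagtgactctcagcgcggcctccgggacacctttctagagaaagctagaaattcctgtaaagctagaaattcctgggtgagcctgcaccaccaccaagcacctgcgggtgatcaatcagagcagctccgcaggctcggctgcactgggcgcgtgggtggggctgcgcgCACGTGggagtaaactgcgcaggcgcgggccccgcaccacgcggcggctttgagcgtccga
Asz1: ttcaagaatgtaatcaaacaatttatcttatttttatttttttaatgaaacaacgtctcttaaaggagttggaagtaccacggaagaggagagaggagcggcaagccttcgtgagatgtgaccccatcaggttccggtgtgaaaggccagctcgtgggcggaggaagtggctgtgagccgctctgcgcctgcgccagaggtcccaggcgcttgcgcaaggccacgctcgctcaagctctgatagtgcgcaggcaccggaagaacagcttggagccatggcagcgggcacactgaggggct
Mov10l1: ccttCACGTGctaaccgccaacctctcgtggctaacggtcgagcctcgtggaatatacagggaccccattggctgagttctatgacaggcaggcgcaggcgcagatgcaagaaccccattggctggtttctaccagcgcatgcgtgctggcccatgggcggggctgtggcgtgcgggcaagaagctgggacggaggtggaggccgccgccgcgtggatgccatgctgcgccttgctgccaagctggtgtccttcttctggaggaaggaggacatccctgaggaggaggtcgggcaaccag
The Mael window is chr1:166238695-166238994 on the minus strand, and the Tdrd1 window is chr19:56825959-56826258 on the plus strand. The Asz1 window is chr6:18109012-18109311 on the minus strand, and the Mov10l1 window is chr15:88982744-88983043 on the plus strand. CACGTG was present in 5 of the 8 windows (Mael, Tdrd1, Tdrd9, Mov10l1 and Pld6), against 7.15% of 32851 windows of the same length over all genes. It lay in windows of genes that were lower and of genes that were higher in Cdk2-Y15S, and Asz1, the member with the lowest ratio, had none. TCCCGC was in 2 windows (Mael and Tdrd5), against 19.975% of all windows. Another motif, AACNG, which MYB family factors including the product of Mybl1 recognise, was in 7 of the 8, against 80.3% of all windows, so its count is near the background. The windows held 10 to 48 CpG dinucleotides with a median of 19, against a median of 7 over all windows. CACGTG and TCCCGC each contain a CpG, so their shares over all windows are not a like comparison. No share over windows of like CpG content was computed. Motifs were searched on both strands, no match overlapped another, and a match describes letters and no binding.

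In the authors' germ cells the summed level of the 10 members was lower in Cdk2-Y15S, at 1110 CPM (1055 to 1166), than in Cdk2-WT, at 1519 CPM (1451 to 1590). Mael alone held 713 of the 1555 UMIs of the members in Cdk2-Y15S and 830 of the 1843 UMIs in Cdk2-WT, so the sum leans on that gene. A CPM value is the share of a gene in all UMIs summed over a group of cells, in parts of 1e6, and each interval is an exact 95% interval that covers counting error only. The difference ran through most of the pathway but not all of it: Asz1, Piwil2, Gtsf1, Mael and the 3 Tudor genes were lower in Cdk2-Y15S, and Mov10l1 and Pld6 were higher. Of 9 members with at least 20 UMIs over both libraries, 6 were lower by 1.5-fold or more (19.7% of 9736 genes were) and 1 was higher by as much (13.1% of genes were). The median log2 ratio of Cdk2-Y15S over Cdk2-WT was -0.68 over these members and -0.05 over all 9736 genes. Dazl, a germ cell gene outside the pathway, stood at 771 CPM in Cdk2-Y15S and 871 CPM in Cdk2-WT, a log2 ratio of -0.18 (-0.30 to -0.05).

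Because cells of different clusters make up the 2 libraries, the difference was also read inside clusters B and C, the only ones with cells of both. With B and C weighted equally, 1 of 8 members (Asz1) was lower by 1.5-fold, 0 were higher, and the median was -0.03. No share over all genes was computed for this weighting, so the count of 1 is not read against other genes. In cluster B alone 17.4% of 5309 genes were lower by as much, and in cluster C alone 16.4% of 1619 genes were. The 14 Cdk2-Y15S and 33 Cdk2-WT cells of these clusters leave wide intervals, and whether the difference belongs to the genotype, the library or the clusters cannot be told apart for any member. Cluster C also carried transcripts of stromal marker genes, at 1845 CPM in Cdk2-Y15S and 1164 CPM in Cdk2-WT over the 8 listed genes, against 150 to 359 CPM in the other groups of germ cells. Their part in the result was not tested. Without cluster C the counts of members past 1.5-fold were as before, 1 higher and 6 lower, and no share over all genes was computed for that set of cells.

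**Figure D1:**
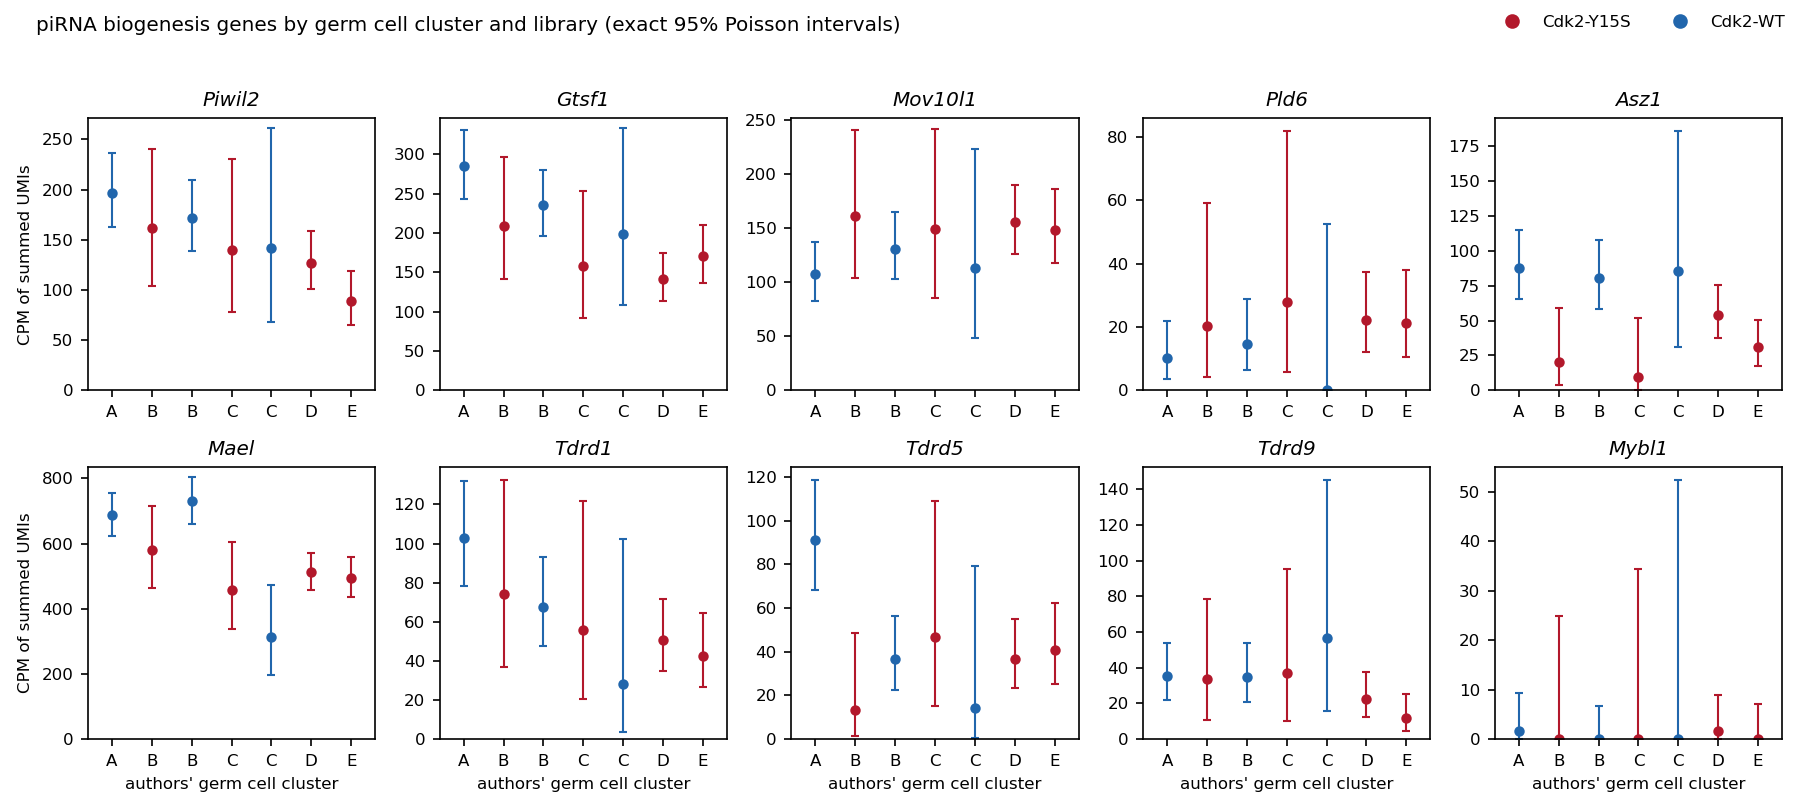
Level of each member (CPM of summed UMIs, vertical axis from 0) in the authors' germ cell clusters A to E, with Cdk2-Y15S in red and Cdk2-WT in blue. Points are sums over the cells of 1 cluster and library and bars are exact 95% Poisson intervals. Asz1 lies lower in all 4 Cdk2-Y15S groups (9.32 to 54.1 CPM) than in all 3 Cdk2-WT groups (80.2 to 87.5 CPM), and Mov10l1 and Pld6 lie higher.

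Piwil2 (chr14:70372477-70429383, minus strand) encodes MILI, the PIWI protein that binds and amplifies piRNAs in the cytoplasm of prospermatogonia. It stood at 162, 140, 127 and 89.0 CPM in Cdk2-Y15S cells of clusters B, C, D and E, and at 197, 171 and 142 CPM in Cdk2-WT cells of clusters A, B and C. The only overlap is that cluster B of Cdk2-Y15S lies above cluster C of Cdk2-WT, and the lowest value is that of cluster E. Over all germ cells it had 165 UMIs in Cdk2-Y15S and 221 UMIs in Cdk2-WT, or 118 and 182 CPM, a log2 ratio of -0.63 (-0.93 to -0.33). Gtsf1 (chr15:103402405-103430470, minus strand) encodes a small zinc finger protein that binds PIWI proteins and stimulates their cutting of target RNA. Its levels were 209, 158, 142 and 170 CPM in Cdk2-Y15S clusters B to E, and 284, 235 and 199 CPM in Cdk2-WT clusters A to C, so that cluster B of Cdk2-Y15S and cluster C of Cdk2-WT are the groups that overlap. The ratio over all germ cells was -0.68 (-0.93 to -0.43) on the log2 scale.

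Asz1 (chr6:18050964-18109061, minus strand) encodes GASZ, a scaffold on the outer mitochondrial membrane around which nuage forms between mitochondria. It had the lowest ratio of the 9 members, with 54 UMIs in Cdk2-Y15S and 102 UMIs in Cdk2-WT, or 38.5 CPM (28.9 to 50.3) and 84.1 CPM (68.6 to 102), a log2 ratio of -1.12 (-1.63 to -0.64). Its levels were 20.2, 9.32, 54.1 and 31.0 CPM in Cdk2-Y15S clusters B to E, and 87.5, 80.2 and 85.1 CPM in Cdk2-WT clusters A to C. The highest of the Cdk2-Y15S groups lies under the lowest of the Cdk2-WT groups, an arrangement found for 6.41% of genes. Within cluster B, 3 UMIs in 6 Cdk2-Y15S cells stood against 44 UMIs in 28 Cdk2-WT cells, a log2 ratio of -1.78 (-4.32 to -0.35), and within cluster C 1 UMI in 8 cells stood against 6 UMIs in 5 cells. Cluster B had 2 of 8 members lower by 1.5-fold (17.4% of 5309 genes were), the other being Tdrd5 on 2 and 20 UMIs, and 0 higher (12.8% of genes were). Cluster C had 0 of 4 lower (16.4% of 1619 genes were) and 0 higher (13.3% of genes were). All 3 UMIs in cluster B came from 1 of the 6 cells. In cluster B the Sertoli marker genes summed to 829 CPM in Cdk2-Y15S and 383 CPM in Cdk2-WT, and their part in the result was not tested.

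Mov10l1 (chr15:88982909-89055152, plus strand) encodes the RNA helicase that binds piRNA precursors and feeds them to the nuclease, and Pld6 (chr11:59783897-59787645, minus strand) encodes that nuclease, also on the outer mitochondrial membrane. Both lay on the other side from Asz1. Mov10l1 stood at 162, 149, 156 and 149 CPM in Cdk2-Y15S clusters B to E, and at 108, 131 and 114 CPM in Cdk2-WT clusters A to C. Over all germ cells its log2 ratio was 0.37 (0.06 to 0.68), with 215 UMIs in Cdk2-Y15S and 144 UMIs in Cdk2-WT. Pld6 was found at 20.2, 28.0, 22.3 and 21.3 CPM in Cdk2-Y15S, while the Cdk2-WT groups had 10.1 and 14.6 CPM in clusters A and B and 0 UMIs in the 5 cells of cluster C, which allows up to 42.6 CPM. Its ratio was 0.91 (-0.01 to 1.96) on 31 UMIs in Cdk2-Y15S and 14 UMIs in Cdk2-WT. In both genes every Cdk2-Y15S group lies above every Cdk2-WT group, as was so for 4.78% of genes, although the limit for Pld6 in cluster C reaches above the Cdk2-Y15S values. For Mov10l1 the log2 ratio was 0.32 (-0.43 to 0.99) within cluster B. Within cluster C it was 0.35 (-0.91 to 1.83), on 16 UMIs in Cdk2-Y15S and 8 UMIs in Cdk2-WT, and both intervals include 0.

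Mael (chr1:166201201-166238747, minus strand) encodes maelstrom, a nuage protein needed for transposon silencing. It was measured at 580, 457, 512 and 495 CPM in Cdk2-Y15S clusters B to E, and at 687, 729 and 312 CPM in Cdk2-WT clusters A to C. Clusters A and B of Cdk2-WT are the high groups, cluster C of Cdk2-WT is the lowest of the 7, and the ratio over all germ cells was -0.43 (-0.57 to -0.28), under 1.5-fold. The Tudor domain proteins bind methylated arginines of PIWI proteins and organise nuage. Tdrd1 (chr19:56826209-56870012, plus strand), a partner of MILI, had 74.2, 55.9, 50.9 and 42.6 CPM in Cdk2-Y15S clusters B to E, and 103, 67.5 and 28.4 CPM in Cdk2-WT clusters A to C. Tdrd5 (chr1:156255296-156303664, minus strand), needed for nuage assembly, had 13.5, 46.6, 36.6 and 40.6 CPM in Cdk2-Y15S, and 90.9, 36.5 and 14.2 CPM in Cdk2-WT. For both, cluster A is the high group and the other Cdk2-WT groups overlap those of Cdk2-Y15S.

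Over all germ cells the log2 ratios were -0.70 (-1.16 to -0.25) for Tdrd1 and -0.76 (-1.31 to -0.23) for Tdrd5. With clusters B and C weighted equally they turned to 0.41 and 0.22. Tdrd9 (chr12:111971559-112068854, plus strand), an RNA helicase with a Tudor domain that works with the nuclear PIWI protein MIWI2, had 33.7, 37.3, 22.3 and 11.6 CPM in Cdk2-Y15S clusters B to E, and 35.3, 34.6 and 56.8 CPM in Cdk2-WT clusters A to C. Its ratio was -0.80 (-1.54 to -0.10), and its low groups are clusters D and E. Mybl1 (chr1:9667415-9700209, minus strand), the gene of the transcription factor A-MYB that turns on piRNA precursor loci later, in pachytene spermatocytes, was barely detected in germ cells. It had 1 UMI in 72 Cdk2-Y15S cells and 1 UMI in 69 Cdk2-WT cells, and no ratio is given.

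**Figure D2:**
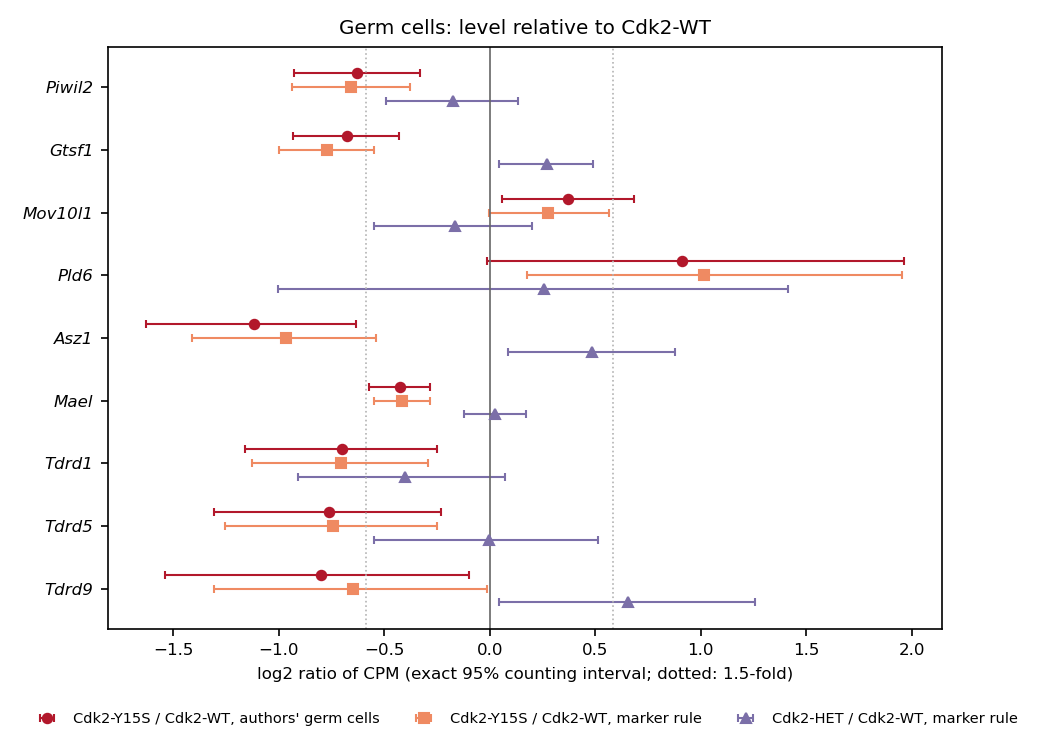
Log2 ratio of CPM over Cdk2-WT for 9 members, with exact 95% counting intervals and dotted lines at 1.5-fold. Red circles and orange squares are Cdk2-Y15S by the authors' cells and by the marker rule, and violet triangles are Cdk2-HET by the marker rule. By the marker rule Asz1 lies at -0.97 in Cdk2-Y15S and at 0.49 in Cdk2-HET, and by the authors' cells it lies at -1.12 in Cdk2-Y15S.

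The heterozygote has no cell among the 141, so germ cells of all 3 libraries were also taken as the cells with a UMI of at least 2 of Ddx4, Dazl, Dnd1 and Sall4, none of which is a member. This gave 114 cells in Cdk2-Y15S, 66 in Cdk2-HET and 122 in Cdk2-WT. Dnd1 is not confined to germ cells in these data (7.87 CPM in Sertoli-marker and 19.5 CPM in fetal Leydig-marker cells). Sertoli marker genes summed to 611, 815 and 757 CPM in the 3 sets, in that order. Stromal marker genes summed to 381, 495 and 240 CPM, and fetal Leydig marker genes to 129, 18.6 and 21.7 CPM. The part of these somatic transcripts in the result was not tested. The rule is not independent of the pathway: Ddx4 is among the other pathway genes read below. Sall4 has the profile most like the mean of the members over the groups of clusters and libraries (r = 0.97). The 10 members summed to 1072 CPM in Cdk2-Y15S, 1551 CPM (1469 to 1637) in Cdk2-HET and 1480 CPM in Cdk2-WT. The interval of Cdk2-HET overlaps that of Cdk2-WT (1420 to 1541) and lies above that of Cdk2-Y15S (1023 to 1122). Mael held 848 of 1829 UMIs of the members in Cdk2-Y15S, 582 of 1338 in Cdk2-HET and 1039 of 2320 in Cdk2-WT.

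In Cdk2-HET over Cdk2-WT, 1 of 9 members was higher by 1.5-fold (8.89% of 9877 genes were) and 0 were lower (6.94% of genes were), with a median of 0.03. The higher one was Tdrd9, at 52.2 CPM in Cdk2-HET and 33.2 CPM in Cdk2-WT, a ratio of 0.66 (0.04 to 1.26). Asz1 stood at 41.0 CPM in Cdk2-Y15S, 112 CPM in Cdk2-HET and 80.4 CPM in Cdk2-WT, with a ratio of 0.49 (0.09 to 0.88) for the heterozygote. Gtsf1 stood at 158, 326 and 270 CPM in the same order, with a ratio of 0.27 (0.05 to 0.49) for the heterozygote. In Cdk2-Y15S over Cdk2-WT the marker rule gave 6 members lower (20.2% of 10431 genes were) and 1 higher, Pld6 at 1.01 (12.2% of genes were), much as the authors' cells did, of which it holds all 141. Both comparisons share the Cdk2-WT library. In Cdk2-Y15S over Cdk2-HET, 4 of 9 members were lower by 1.5-fold (20.8% of 9722 genes were), Asz1 at -1.45, Tdrd9 at -1.30, Gtsf1 at -1.04 and Tdrd5 at -0.74, and Pld6 was the 1 that was higher (0.76, with 11.0% of genes higher).

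The 42 Cdk2-Y15S and 53 Cdk2-WT cells that the marker rule added to the 141 are a separate set of cells from the same libraries. They are shallower, with medians of 6331 and 5598 UMIs. Of 6 members with at least 20 UMIs in them, 3 were lower in Cdk2-Y15S by 1.5-fold (17.8% of 5297 genes were) and 0 were higher (15.7% of genes were), and the median was -0.61. Piwil2 was at 58.9 and 124 CPM in Cdk2-Y15S and Cdk2-WT (-1.05, -1.95 to -0.25), and Gtsf1 at 147 and 316 CPM (-1.09, -1.63 to -0.59). Asz1, which had the lowest ratio among the 141, did not pass 1.5-fold here. It had 52.4 CPM in Cdk2-Y15S and 67.7 CPM in Cdk2-WT, with an interval that includes 0 (-0.35, -1.38 to 0.60). Mov10l1, which was higher in Cdk2-Y15S among the 141, had 91.6 CPM in Cdk2-Y15S and 113 CPM in Cdk2-WT here, with an interval that includes 0 (-0.29, -1.05 to 0.43). Sertoli marker genes summed to 1509 CPM in these Cdk2-Y15S cells and 1917 CPM in these Cdk2-WT cells. Fetal Leydig marker genes summed to 638 CPM in these Cdk2-Y15S cells and 45.1 CPM in these Cdk2-WT cells, and their part in the result was not tested.

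Within the Cdk2-WT library the clusters differ in the cell cycle: Mki67, a marker of cycling cells, stood at 20.2 CPM in cluster A and 181 CPM in cluster B, and Top2a at 53.9 and 348 CPM. The authors' clusters may rest on expression in these same cells, so their differences are descriptions. Of 8 members with at least 20 UMIs, 2 were higher in cluster A by 1.5-fold (18.1% of 7249 genes were) and 0 were lower (12.4% of genes were), with a median log2 ratio of 0.16. Tdrd5 was higher in cluster A, at 90.9 CPM (68.3 to 119) and 36.5 CPM (22.3 to 56.3) in cluster B, a log2 ratio of 1.30 (0.55 to 2.14). Tdrd1 was just past 1.5-fold, at 0.60 (-0.01 to 1.24), while Piwil2, Asz1, Gtsf1, Mael, Mov10l1 and Tdrd9 lay between -0.28 and 0.27 with intervals that include 0. With only cells of at most 10% mitochondrial UMIs the median was 0.58, from 16 cells of cluster A and 4 of cluster B.

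Within the Cdk2-Y15S library, cluster E over cluster D had 0 of 9 members higher by 1.5-fold (7.53% of 6838 genes were) and 2 lower (10.3% of genes were), with a median of -0.06. The 2 were Asz1, at 31.0 CPM in cluster E and 54.1 CPM in cluster D, and Tdrd9, at 11.6 and 22.3 CPM, and both intervals include 0. The intervals of the other 7 members also include 0, so that no difference between clusters E and D was detectable at this depth for a single member.

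**Figure D3:**
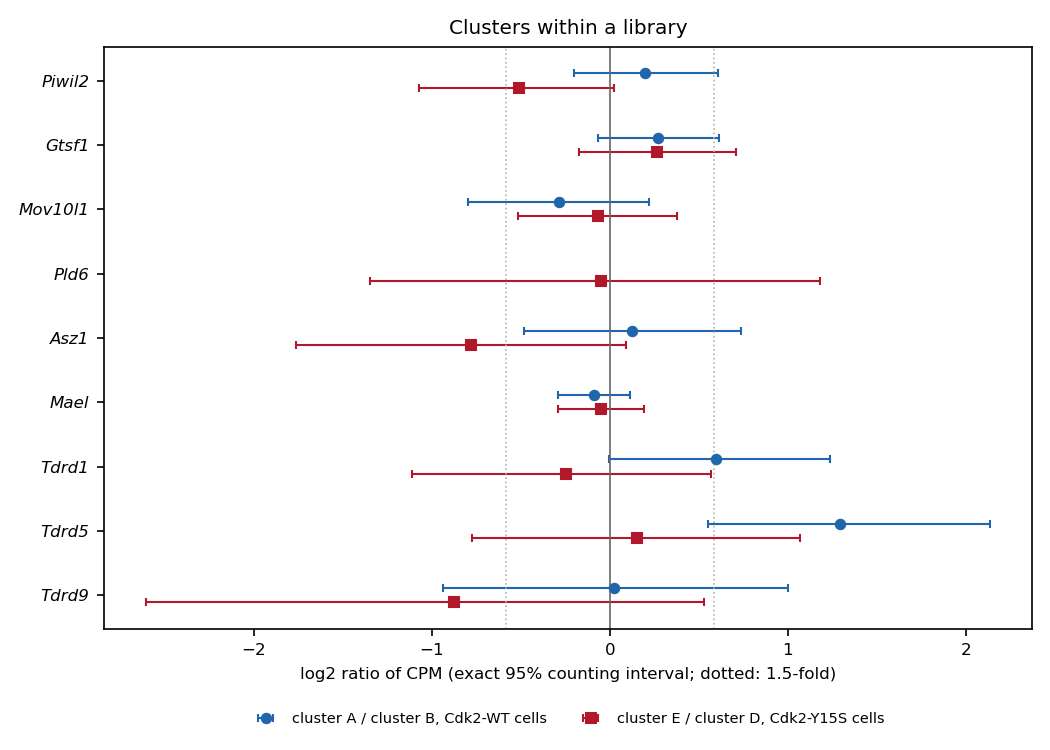
Log2 ratio of CPM between clusters of 1 library for each member with at least 20 UMIs, with exact 95% counting intervals and dotted lines at 1.5-fold. Blue circles are cluster A over cluster B in Cdk2-WT cells and red squares cluster E over cluster D in Cdk2-Y15S cells. Tdrd5 in cluster A over cluster B (1.30) is the point whose interval lies wholly off 0.

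Detection in single cells was compared at 10000 UMIs per cell, which every one of the 141 cells has, as the mean over all draws of that many UMIs. Asz1 was detected in 33.9% of Cdk2-Y15S and 61.0% of Cdk2-WT germ cells, against 51.4% (39.3 to 63.4) and 82.6% (71.6 to 90.7) at full depth. Tdrd5 was detected in 26.7% and 43.5% of cells, Tdrd1 in 40.3% and 57.2%, Tdrd9 in 18.8% and 32.1%, and Piwil2 in 69.8% and 80.9%, in Cdk2-Y15S and Cdk2-WT each. The order was turned for Pld6, at 21.9% of Cdk2-Y15S and 11.3% of Cdk2-WT cells, and for Mov10l1, at 75.2% and 69.1%. These shares run in the same direction as the CPM values for each of these 7 genes.

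At that depth only some of the 10 transcripts were detected in a single germ cell. The number follows depth, with group medians between 3.03 and 4.03 at 5000 UMIs and between 5 and 7 at full depth, so a transcript that was not detected is not read as absent. The median number of members detected per cell was 5.05, 4.07, 4.99 and 4.60 in Cdk2-Y15S clusters B, C, D and E, and 5.64, 5.22 and 5.04 in Cdk2-WT clusters A, B and C. Single cells ranged between 1.89 and 7.002 over all groups, both extremes lying in large groups (clusters D and A), and the groups overlap throughout.

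**Figure D4:**
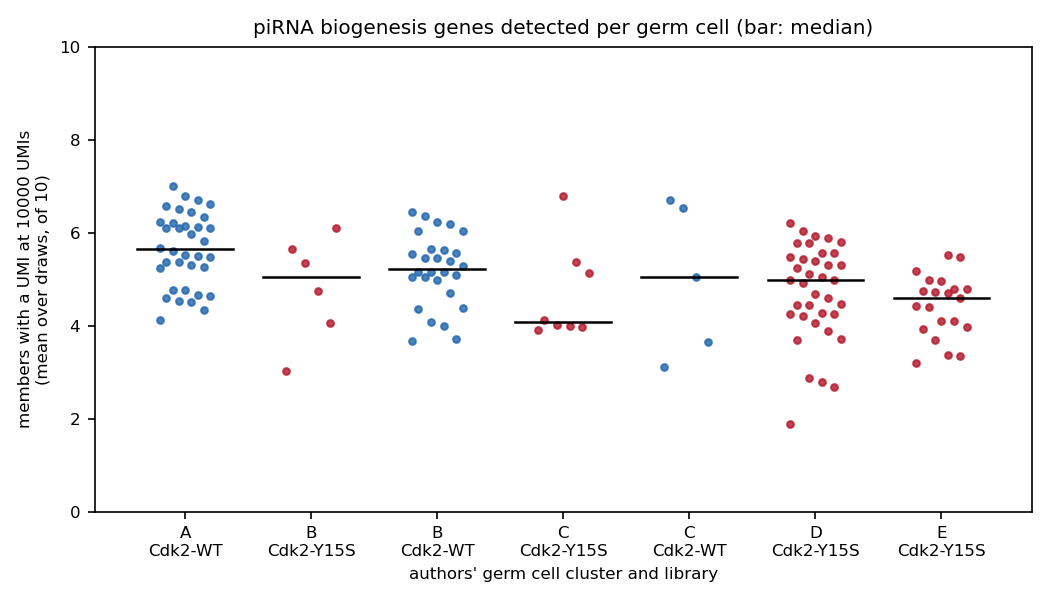
Number of the 10 members with a UMI in each germ cell at 10000 UMIs, as the mean over all draws, by the authors' cluster and library. Each point is 1 cell (Cdk2-Y15S red, Cdk2-WT blue) and the bar is the median. Medians lie between 4.07 and 5.64 and the groups overlap.

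Across the 7 groups of clusters and libraries the members did not share 1 profile. The correlation of each gene's log2(CPM + 10) with the mean over the members was 0.88 for Tdrd1, 0.84 for Mael and 0.74 for Piwil2, but 0.10 for Tdrd9, 0.09 for Pld6 and -0.40 for Mov10l1. The mean includes the gene itself, and the 7 groups share 2 libraries. Of 2274 genes outside the pathway lists with at least 200 UMIs, the 5 most like the mean were Sall4 (r = 0.97), Cltc (0.96), Selk (0.96), Pias2 (0.95) and Wdr26 (0.94). Sall4, a transcription factor of undifferentiated germ cells, stood at 142, 149, 140 and 112 CPM in Cdk2-Y15S clusters B to E, and at 299.6, 221 and 128 CPM in Cdk2-WT clusters A to C.

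A list of 19 other genes of the pathway was read in the same way. Of 18 with at least 20 UMIs in the authors' germ cells, 9 were lower in Cdk2-Y15S than in Cdk2-WT by 1.5-fold (19.7% of all genes were) and 1 was higher (13.1% of all genes were), with a median of -0.66, against -0.05 over all genes. The lower ones include the other PIWI genes, Piwil4 (MIWI2, which carries piRNAs to the nucleus) at 11.4 CPM in Cdk2-Y15S and 25.6 CPM in Cdk2-WT, and Piwil1 (MIWI, the PIWI protein of later stages) at 9.99 and 20.6 CPM. Genes that silence transposons were among them too. Spocd1, a nuclear partner of MIWI2 in DNA methylation, had 2 UMIs in Cdk2-Y15S and 19 UMIs in Cdk2-WT, a log2 ratio of -3.17 (-6.60 to -1.41). All 19 were in cluster A, which has no Cdk2-Y15S cell. Spocd1 reached the limit of 20 UMIs only through that cluster, so its ratio cannot be told apart from a difference between clusters. Morc1, which represses transposons in male germ cells, had 27 and 78 UMIs, a ratio of -1.72 (-2.43 to -1.09). Btbd18 (-1.63) and Tcfl5 (-0.89), regulators of transcription, Gpat2 (-0.84), a partner of MILI, and the Tudor domain genes Tdrd7 (-1.19) and Stk31 (-0.79) completed the 9. Henmt1, which methylates the ends of mature piRNAs, was the 1 that was higher, at 21.4 CPM in Cdk2-Y15S and 12.4 CPM in Cdk2-WT (0.77, -0.15 to 1.79). The groups of Cdk2-Y15S lay wholly under those of Cdk2-WT for 8 of the 18 (Ddx4, Piwil1, Piwil4, Stk31, Tex15, Morc1, Btbd18 and Gpat2) and wholly above them for 0, where 6.41% and 4.78% of all genes did. This order ignores the intervals, and the groups are clusters of only 2 libraries. Ddx4 had 205 CPM (128 to 310) in cluster C of Cdk2-Y15S and 210 CPM (173 to 252) in cluster B of Cdk2-WT. Piwil1 had 13.5 CPM on 2 UMIs in cluster B of Cdk2-Y15S and 14.6 CPM on 8 UMIs in cluster B of Cdk2-WT.

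Within cluster B, 4 of 10 genes of the list were lower in Cdk2-Y15S than in Cdk2-WT by 1.5-fold (17.4% of all genes were) and 0 were higher (12.8% of all genes were), with a median of -0.51, where the members had -0.11. Within cluster C, 2 of 4 were lower (16.4% of all genes were) and 0 were higher (13.3% of all genes were), with a median of -0.67, where the members had 0.15. In cluster A over cluster B, 4 of 14 were higher by 1.5-fold (Morc1 at 1.42, Piwil1, Btbd18 and Tcfl5; 18.1% of all genes were) and 0 were lower (12.4% of all genes were). Spocd1 had 19 UMIs in cluster A and 0 in cluster B, or 32.0 CPM in cluster A and a limit of 5.47 CPM in cluster B (the level 3 counts would give). In cluster E over cluster D, 1 of 12 was higher (Henmt1 at 0.84; 7.53% of all genes were) and 1 lower (Gpat2 at -0.64; 10.3% of all genes were), near the shares of all genes. In Cdk2-HET over Cdk2-WT by the marker rule, 1 of 18 was higher (Pnldc1, the trimmer of piRNA ends, at 1.09, with 8.89% of all genes higher) and 0 were lower (6.94% of all genes were). In Cdk2-Y15S over Cdk2-HET, 7 of 17 were lower (20.8% of all genes were) and 0 were higher (11.0% of all genes were).

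Against the 14281 other cells of the matrix, 9 of the 10 members were at least 4-fold higher in the 141 germ cells (14.3% of 15855 genes were), with log2 ratios between 2.72 for Pld6 and 6.10 for Mov10l1. Mybl1 was lower by 4-fold or more (11.3% of genes were). The other cells still include germ cells that are not among the 141, and without cells of at least 2 germ cell markers the median ratio of the members was 7.38 in place of 5.14. The 9 genes were higher in germ cells within Cdk2-Y15S (9.54% of genes were) and within Cdk2-WT (13.2% of genes were) as well, where at least 20 UMIs were also present for each. Of the 19 other pathway genes, 18 were at least 4-fold higher, and the remaining one, Tdrd7, stood at 21.8 CPM in germ cells and 5.56 CPM in other cells. Mael, counted among the members, and Ddx4, counted among the other pathway genes, had a UMI in each of the 141 cells. How those cells were chosen is not stated, so the high levels of Mael and Ddx4 are not read as a result.

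The members' UMIs outside germ cells did not fall evenly over the somatic cells. Cells were put in a class when one list of marker genes led with at least 2 UMIs, which gave 6638 Sertoli-marker cells, the somatic cells that nurse germ cells, and 5249 stromal-marker cells. These classes are ranges of a score, with 8 and 45 cells 1 UMI from the limit, and the comparison was chosen after its values were seen. Of 7 members with at least 20 UMIs, 4 were at least 4-fold higher in Sertoli-marker cells (9.71% of 14502 genes were) and 0 were lower by as much (13.3% of genes were). They were Mybl1, Pld6, Piwil2 and Tdrd5, while Mael, Tdrd1 and Gtsf1 lay between -0.11 and 0.30.

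Mybl1 had 614 UMIs in Sertoli-marker cells and 73 UMIs in stromal-marker cells, or 13.7 CPM (12.7 to 14.8) and 2.47 CPM (1.93 to 3.10), a log2 ratio of 2.47 (2.12 to 2.85). Pld6 had 201 and 8 UMIs, or 4.49 and 0.271 CPM (3.97, 3.05 to 5.28), and 0 UMIs in 1724 peritubular myoid-marker cells, which allows up to 0.174% of cells with a UMI. Piwil2 had 148 and 12 UMIs, or 3.31 and 0.406 CPM (2.97, 2.18 to 4.01), and Tdrd5 had 126 and 11 UMIs, or 2.82 and 0.372 CPM (2.86, 2.03 to 3.96). Mael, with 58 and 31 UMIs (0.30, -0.35 to 0.98), and the germ cell gene Dazl, with 89 and 41 UMIs (0.51, -0.03 to 1.09), had intervals that include 0, although Dazl in Cdk2-HET alone had 2.36 CPM in Sertoli-marker cells and 0.741 CPM in stromal-marker cells. In germ cells Mael had 1543 UMIs, Piwil2 386 UMIs and Pld6 45 UMIs, whereas in Sertoli-marker cells Mael had the fewest UMIs of the 3.

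At 3000 UMIs per cell, which left out 783 Sertoli-marker and 520 stromal-marker cells, Mybl1 was detected in 3.77% and 0.677% of them (8.09% and 1.35% at full depth, with medians of 6194.5 and 5381 UMIs). Pld6 was detected in 1.30% and 0.0857%, and Mael in 0.346% and 0.242%. Piwil2 and Tdrd5 were detected in 0.933% and 0.836% of Sertoli-marker cells, against 0.0874% and 0.0939% of stromal-marker cells. In germ cells at the same depth Mybl1 reached 0.291%, and its 2 UMIs there do not separate expression from free RNA.

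**Figure D5:**
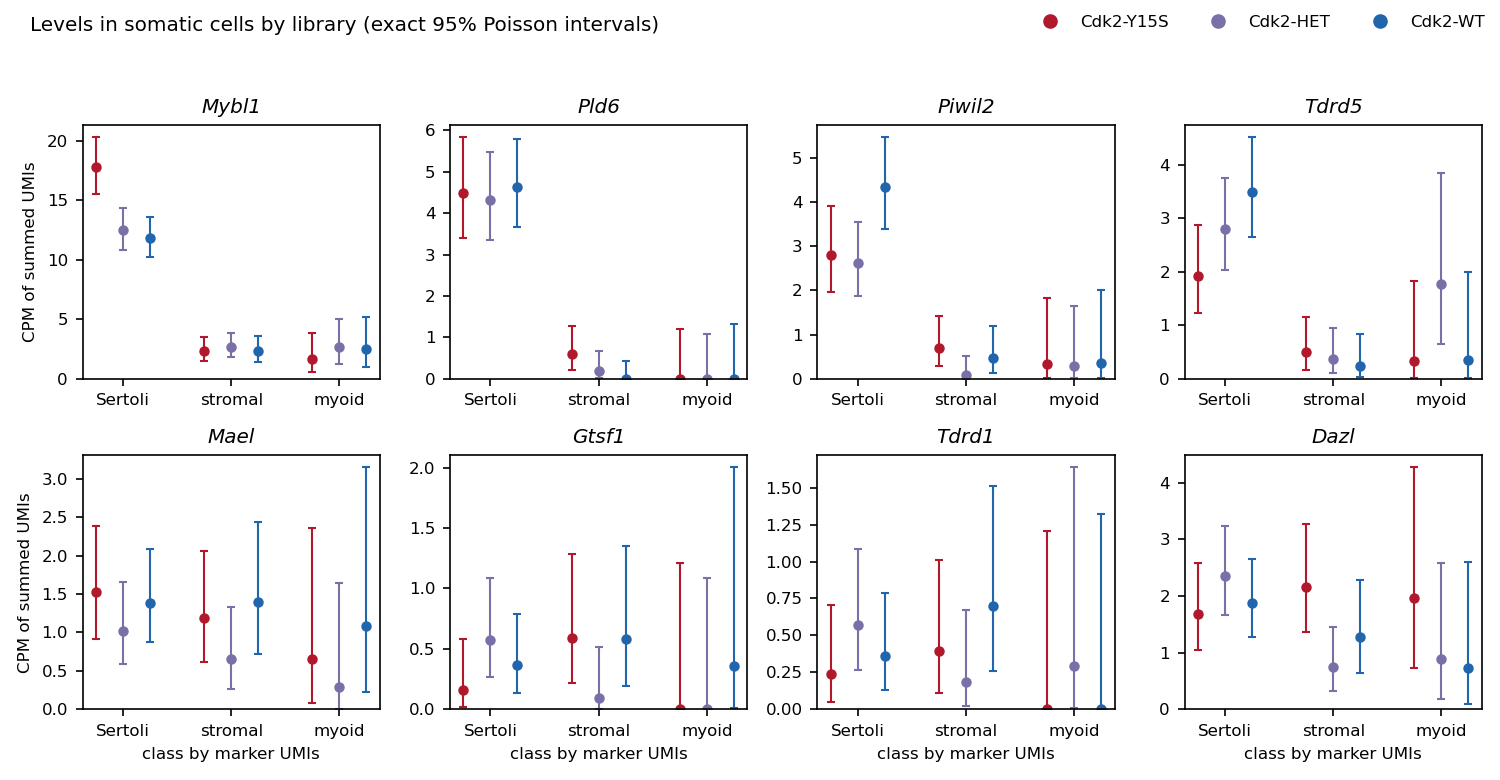
Level (CPM of summed UMIs, vertical axis from 0) of 7 members and the germ cell gene Dazl in Sertoli-marker, stromal-marker and peritubular myoid-marker cells of Cdk2-Y15S (red), Cdk2-HET (violet) and Cdk2-WT (blue), with exact 95% Poisson intervals. Mybl1, Pld6, Piwil2 and Tdrd5 lie higher in Sertoli-marker than in stromal-marker cells of each library. Mael, Gtsf1 and Tdrd1 have intervals that overlap between the classes in each library, as has Dazl except in Cdk2-HET.

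The gap between the classes was present in each library. In Sertoli-marker and stromal-marker cells Mybl1 stood at 17.8 and 2.36 CPM in Cdk2-Y15S, at 12.5 and 2.69 CPM in Cdk2-HET, and at 11.8 and 2.32 CPM in Cdk2-WT. In Cdk2-Y15S alone 2 of 5 members were past 4-fold (9.33% of genes were) and Piwil2 and Tdrd5 lay just under it, at 1.95 and 1.86. In Cdk2-HET alone and in Cdk2-WT alone 4 of 5 members were past it (8.90% and 9.29% of genes were).

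Among Sertoli-marker cells, Mybl1 was higher in those with a UMI of Mki67 or Top2a, at 20.8 CPM (18.9 to 22.8) in 2493 cells and 7.68 CPM (6.61 to 8.87) in the 4145 cells without, a log2 ratio of 1.43 (1.18 to 1.69). The cells with these transcripts were deeper, with a median of 7749 UMIs, than those without, at 5757 UMIs. By library the values with and without these transcripts were 26.5 and 9.35 CPM in Cdk2-Y15S, 19.1 and 6.51 CPM in Cdk2-HET, and 17.5 and 7.58 CPM in Cdk2-WT. Stromal-marker cells showed the same order at a lower level, with 6.22 and 1.22 CPM. There Mybl1 was the 1 of 2 counted members past 1.5-fold (12.8% of 13038 genes were higher and 6.90% lower). Tdrd5 ran the other way in Sertoli-marker cells, at 1.79 CPM with and 3.69 CPM without (-1.03, -1.64 to -0.48), and Pld6, Piwil2 and Mael did not pass 1.5-fold. Past that fold stood 1 of 5 members on each side, where 7.73% of 13106 genes were higher and 4.04% lower.

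Between genotypes, Mybl1 in Sertoli-marker cells was higher in Cdk2-Y15S, at 17.8 CPM (15.6 to 20.3), than in Cdk2-WT, at 11.8 CPM (10.2 to 13.6), a log2 ratio of 0.59 (0.31 to 0.88). Cdk2-HET stood at 12.5 CPM, a ratio of 0.08 (-0.21 to 0.37) over Cdk2-WT. In Cdk2-HET over Cdk2-WT, 0 of 5 members were higher by 1.5-fold (4.97% of 12627 genes were) and 1 was lower (3.42% of genes were), namely Piwil2 at -0.73 (-1.32 to -0.16). Piwil2 (-0.62, -1.25 to -0.03) and Tdrd5 (-0.84, -1.61 to -0.15) were lower in Cdk2-Y15S than in Cdk2-WT Sertoli-marker cells, the side on which they lay in germ cells. With 1 member higher and 2 lower of 5, against 10.2% and 4.44% of 12531 genes, these values describe 1 library of each genotype.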

How the data were processed

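Single cells of 3 mouse testis libraries (1 per genotype) were measured by 10x Genomics 3-prime sequencing. The deposited counts are whole UMIs per gene and cell, made with Cell Ranger 2.1.0, Seurat and the mm10 build, per the submitters' processing notes, which give no roles. The authors also deposited counts and clusters A to E for the 141 germ cells. Their 10439 genes with 1 matrix row equal the matrix, and Mybl1, absent from that table, was read from the matrix.

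UMIs were summed per cluster, class and library, with 0.5 UMI added to each sum in log2 ratios. Ratios count from 20 UMIs over both sums, past 1.5-fold between genotypes or clusters and 4-fold between cell types. Levels have exact Poisson, ratios conditional binomial and shares Clopper-Pearson 95% intervals, for counting error only. No cells or doublets were removed, since the authors' germ cells were taken as deposited. Tdrd5 and Tdrd9 each overlap a gene on the opposite strand, and whether counting used strand is not stated. Piwil2, Tdrd5 and Mov10l1 also overlap genes on the same strand, none of which is in the matrix. Members, lists and comparisons were chosen with earlier results of these data known. The named genes are the members, listed pathway genes past the fold, the 5 most alike genes, and germ cell and cycling reference genes. Others were named after their values were seen. The fold counting was tested on simulated Poisson counts, which hold no variation between cells, clusters or libraries. Python 3.11.15, numpy 2.4.6, scipy 1.17.1, pandas 2.3.3 and matplotlib 3.10.9 were used.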

Additional observations from a re-analysis of the deposited data

How the results depend on the processing

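With clusters B and C weighted equally, 0 members were higher and 1 lower by 1.5-fold in Cdk2-Y15S over Cdk2-WT germ cells, the median log2 ratio was -0.030, and Tdrd1 (0.41) and Tdrd5 (0.22) turned direction, on fewer cells. Among members with at least 50 UMIs, 0 were higher, as Pld6 has fewer. In cluster A over cluster B, 1 member was higher with the mean of per-cell CPM, without mitochondrial UMIs in the total, or with 5 UMIs added, and 3 were in cells of at most 10% mitochondrial UMIs (Piwil2 at 1.09, Tdrd1 at 1.01 and Tdrd5 at 2.46). In cluster E over cluster D, 1 was lower with 5 UMIs added or in cells of at most 10% mitochondrial UMIs, and 3 with the mean of per-cell CPM. The cause was not tested, and no share over all genes was computed under these alternatives. Germ cells over other cells had a median of 5.67 with per-cell means, 7.38 without other cells that hold 2 of the 4 germ cell markers and 7.46 without those that hold 1. Sertoli-marker over stromal-marker cells had 2 members past 4-fold and a median of 1.95 in Cdk2-Y15S alone, and a median of 3.07 in Cdk2-WT alone. The median number of members per cell lay between 3.03 and 4.03 at 5000 UMIs and between 5 and 7 at full depth. Of the single log2 ratios, 2 that were past 1.5-fold changed sign under an alternative (Tdrd1 and Tdrd5, above), as did 13 that were not. In cells of at most 10% mitochondrial UMIs, Gtsf1 was at -0.16 in cluster A over B and -0.19 in cluster E over D, and Mov10l1 at 0.31 in cluster E over D. Leaving out cluster C, other denominators, stricter classes, each library alone and means over all draws were chosen after seeing the data. No replicate could be left out with 1 library per genotype. No paired analysis was possible because the genotypes have 1 library each. Germ cells held 2 UMIs of Mybl1, 45 of Pld6 and 73 of Tdrd9, the fewest of the 10 members.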
